A study of Mus musculus with 34 samples.

Results

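Lysosome and autophagy genes were described in cultures of MOSJ-Dkk1 cells, a mouse osteochondral sarcoma line. The set held 42 genes chosen by name for their role, of the 16576 genes in the culture table. Of these, 39 had a value. Gusb, Gabarap and Atg9a had no row under their symbols and were not analysed here. The members comprised lysosomal hydrolases and their activators, lysosomal membrane and transport proteins, subunits of the proton pump, the TFEB family with its regulators, the cargo receptor and ATG8 proteins, and the genes of autophagy initiation and conjugation.

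All cultures carried a red fluorescent label and a lentiviral cassette from which the CMV promoter drove secretion of human Dkk-1, an inhibitor of Wnt signalling. Cultures in log phase were taken after 6 days with fresh medium every 2 days, and cultures under nutritional stress were held at confluence for 48 h, with 4 days without a change of medium. Each condition had 3 groups of 3 libraries, which received no morpholino (NT, labelled vehicle), 5 µM DkkMo, a morpholino against Dkk-1, or 5 µM scrMo, its scrambled control. The dose and times are those of the protocol in the labels, and the sources used here differ on the dose and on the length of treatment. The line expresses Dkk-1 ectopically, and every group shares that expression, so no group lacks the transgene. The blocked transcript is human and no row of the mouse table measures it, so the effect of DkkMo on its target could not be checked in these libraries. The 3 libraries of a group are labelled as replicates without a statement that they came from separate flasks, so that p-values cover the spread between these libraries, which may be technical. Number 2 appears in the titles of 2 stressed NT libraries.

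Lysosomes are acidic compartments in which hydrolases break down proteins, lipids, glycans and glycogen. Their acidity is kept by the vacuolar proton pump, and their membrane proteins export the products. In autophagy, a double membrane forms around cytoplasm under the control of the ULK1 kinase, the Beclin complex and WIPI proteins, ATG8 proteins are conjugated to its lipids, and it fuses with a lysosome. When amino acids are scarce, mTORC1 leaves the lysosome, and the transcription factors TFEB and TFE3 enter the nucleus and bind a palindrome around the E-box in promoters of lysosomal genes. Folliculin and its partner FNIP1 act with the Rag GTPases on how these factors are held in the cytoplasm.

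The central letters of that palindrome, TCACGTGA, were sought on both strands of the RefSeq promoter windows of GRCm38.p6, which run from 250 bases before to 50 bases after a start. The motif reads the same on both strands and contains the E-box CACGTG. A window was given for 33 of the 39 measured members, and 7 of them held the motif, which is 21.2%. The share was 2.03% among 10521 tested genes with a window and 1.12% among all 27025 genes with one. The shorter CACGTG was in 14 of the 33 members (42.4%), in 11.3% of tested genes and in 8.09% of all genes. The palindrome is known from promoters of lysosomal genes and the members were chosen by role. A higher share among them could thus be foreseen and tells nothing about these cultures. The holders of TCACGTGA were Ctsa, Ctsd, Gla, Cln3, Mcoln1, Atp6v0d1 and Atp6v1a. The letters around the match are shown for the 6 of them with a motif wholly before the start, whatever their change. Capitals mark the motif, and each sequence reads 5′ to 3′ on the strand of its gene.
Gla, match 1, chrX:134601215-134601244, minus strand: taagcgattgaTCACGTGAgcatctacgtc
Gla, match 2, chrX:134601182-134601211, minus strand: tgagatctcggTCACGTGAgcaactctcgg
Mcoln1, chr8:3500462-3500491, plus strand: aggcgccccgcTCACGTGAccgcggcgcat
Ctsd, chr7:142387908-142387937, minus strand: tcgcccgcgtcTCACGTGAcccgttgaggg
Ctsa, chr2:164833749-164833772, plus strand: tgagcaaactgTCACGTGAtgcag
Cln3, chr7:126583340-126583369, minus strand: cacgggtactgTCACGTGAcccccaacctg
Atp6v1a, chr16:44139373-44139402, minus strand: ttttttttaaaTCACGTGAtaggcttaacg

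The motif of the first and second match began 228 and 195 bases before the start of Gla, 46 before that of Mcoln1, 99 before that of Ctsd, 13 before that of Ctsa (whose second match began at base 5 counted from the start), 122 before that of Cln3 and 132 before that of Atp6v1a. In Atp6v0d1 the motif began 4 bases before the start and ran across it. Starts are those of the RefSeq windows. In the GENCODE M21 models, which include further transcripts, both matches of Gla lay outside the gene, that of Atp6v1a in an intron and those shown for Mcoln1, Ctsd, Ctsa and Cln3 in an exon. These matches describe letters in the windows and show no binding.

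The deposited values are variance-stabilised and on the log2 scale, and reversing the transformation gave whole reads, between 25.9 and 44.8 M reads per library on the listed genes. A normalized count is a read number after division by its library's size factor. Log2 fold changes are differences of group means of the deposited values, which understate changes of genes with few reads, and they are given ± SE from limma. Adjusted p-values are from limma over 16562 genes, and a gene was called at an adjusted p below 0.05. Members over 1.5-fold on that stabilised scale are counted beside the calls, and in normalized counts scarce genes such as Ctsk changed by more. No pair of replicate libraries agreed within sampling noise, with a chi-square per gene of 3.23 to 38.6 where sampling alone gives about 1. It was 4.65 to 38.6 in log phase and 3.23 to 9.14 under stress. The fit shares 1 spread over both conditions, so its p-values may be too small in log phase and too large under stress. In log phase the first library of each group stood further from its mates than these did from each other. An exact permutation test of 3 against 3 libraries cannot go below a p of 0.1, two-sided, and was not used.

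Markers of bone cells were read in the same libraries. Of 9 osteoblast markers 7 had a row, and their summed normalized count was 246498 to 278423 in the log-phase NT libraries and 75476 to 81930 in the stressed NT libraries. With scrMo it was 119057 to 159208 and 83306 to 87083, and with DkkMo 191063 to 225688 and 63973 to 65118. The sum differed between the culture conditions and, in both of them, between the morpholino states without overlap, and its part in the changes below was not tested. Most of it was Spp1, at 186214, 194979 and 214487 in the log-phase and 68414, 62181 and 65496 in the stressed NT libraries. The markers did not move together, with 2 rising and 4 falling under stress in each state. Runx2, the transcription factor of the lineage, went from 2337, 2198 and 2372 to 5718, 5514 and 5644 with NT. Of 12 macrophage and osteoclast markers, 4 had a row, with summed counts between 822 and 1091 in all 18 libraries, and 3 of 4 chondrocyte markers summed to 4605 to 9269. In bulk RNA, fewer cells of a type and less RNA per cell cannot be told apart.

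Per kilobase of exon, the most abundant members of log-phase NT cultures were Psap, at 25690 ± 999 normalized counts (SD, n = 3), Sqstm1 at 20088 ± 2294, Ctsd at 15036 ± 279 and Lamp1 at 10076 ± 451. Psap encodes the precursor of the saposins, which help hydrolases to reach lipids. The least abundant were Cln3 at 164 ± 3.71, Tfeb at 44.6 ± 3.59, Rragd at 39.7 ± 4.13 and Ctsk at 18.3 ± 5.04. With the length of the longest transcript in place of the union of exons, the order of the first 5 and of the last 3 genes was the same. Tfe3 was at 344 ± 10.2 per kilobase, above Tfeb by more than the spread between replicates.

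**Figure D1:**
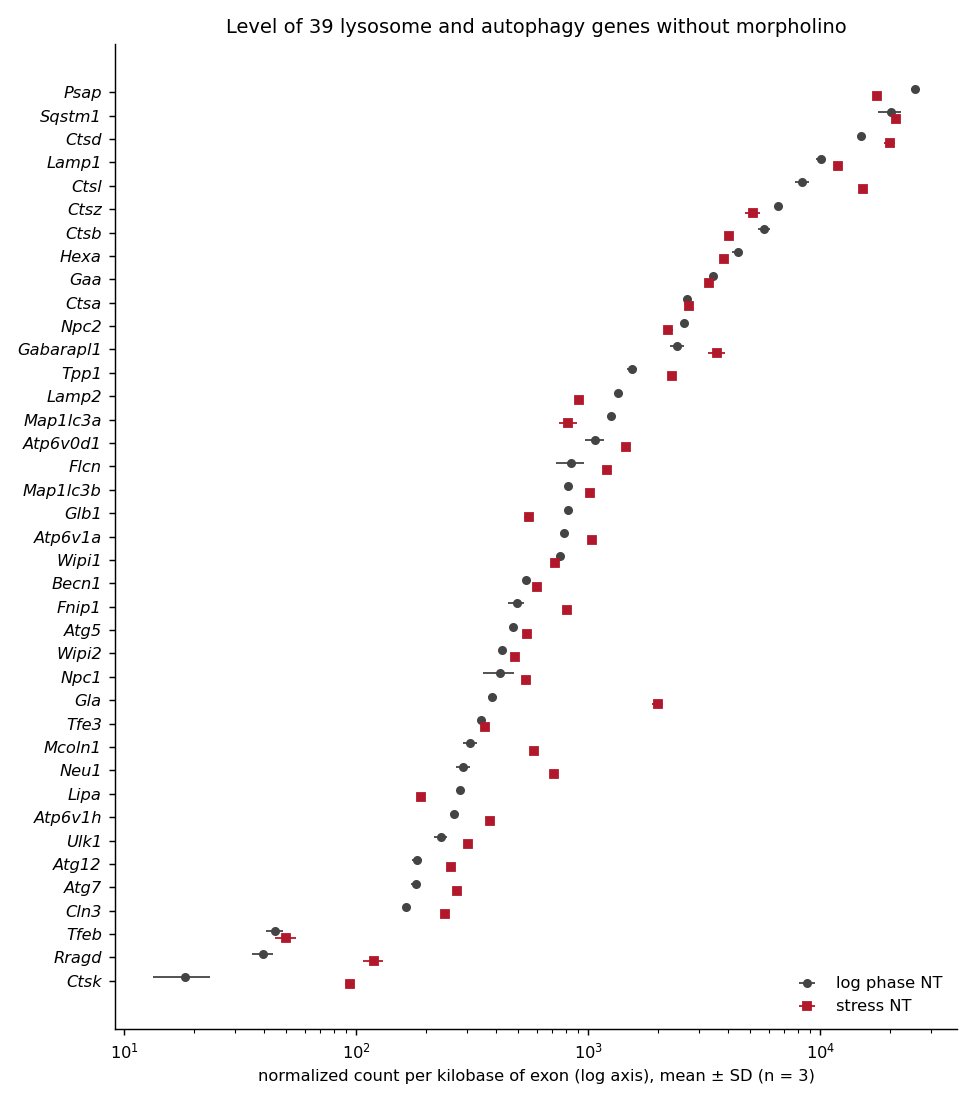
Normalized counts per kilobase of exon (log axis, mean ± SD of 3 libraries) of 39 members in NT cultures, as grey circles for log phase and red squares for stress. Psap is highest in log phase, at 25690 per kilobase, and Ctsk is lowest, at 18.3.

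Stress against log phase was compared within each morpholino state. The culture conditions differed together in confluence and in changes of medium, whose parts in a change cannot be told apart. Without morpholino, 24 of the 39 members rose and 9 fell, which is 84.6% called against 65.6% of all genes tested. Members that rose made up 61.5%, against 31.5% of all genes, and those that fell 23.1%, against 34.1%. With scrMo, 21 rose and 4 fell, 64.1% called against 58.8% of all genes, of which 28.0% rose and 30.8% fell. With DkkMo 19 rose and 11 fell, 76.9% called against 65.6% of all genes, of which 30.4% rose and 35.2% fell. The median log2 fold change of the members was 0.30, 0.18 and 0.14 for NT, scrMo and DkkMo, and that of all genes was -0.01 in each. Over 1.5-fold, 7 members rose with NT and none fell, against 18.1% of all genes past that size, 8.22% higher and 9.90% lower. With scrMo 10 rose and none fell, against 10.7% of all genes, 4.38% higher and 6.28% lower. With DkkMo 10 rose and 1, Ctsb, fell, against 16.5%, 6.24% higher and 10.2% lower.

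Every member but Sqstm1 was called in at least 1 of the 3 comparisons, and 2402 of all 16562 genes were called in none. In all 3, 15 members rose, or 38.5%, against 16.6% of all genes, namely Atg12, Atp6v1a, Ctsd, Ctsk, Ctsl, Flcn, Fnip1, Gabarapl1, Gla, Map1lc3b, Mcoln1, Neu1, Rragd, Tpp1 and Ulk1. Only Ctsb and Ctsz, or 5.13%, fell in all 3, against 19.5%. Becn1, Lamp2, Lipa and Wipi2, or 10.3%, were called in opposite directions in different morpholino states, against 6.44% of all genes. The median over genes of a stressed library minus that of a log-phase library was -0.16 with NT, -0.07 with scrMo and -0.16 with DkkMo on the log2 scale. When each library was centred on its median, 28 rose and 7 fell with NT, 23 and 2 with scrMo, and 24 and 6 with DkkMo. Under quantile normalization, 21 rose and 12 fell with NT, where the log2 fold changes of Ctsd and Lamp1 changed sign.

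**Figure D2:**
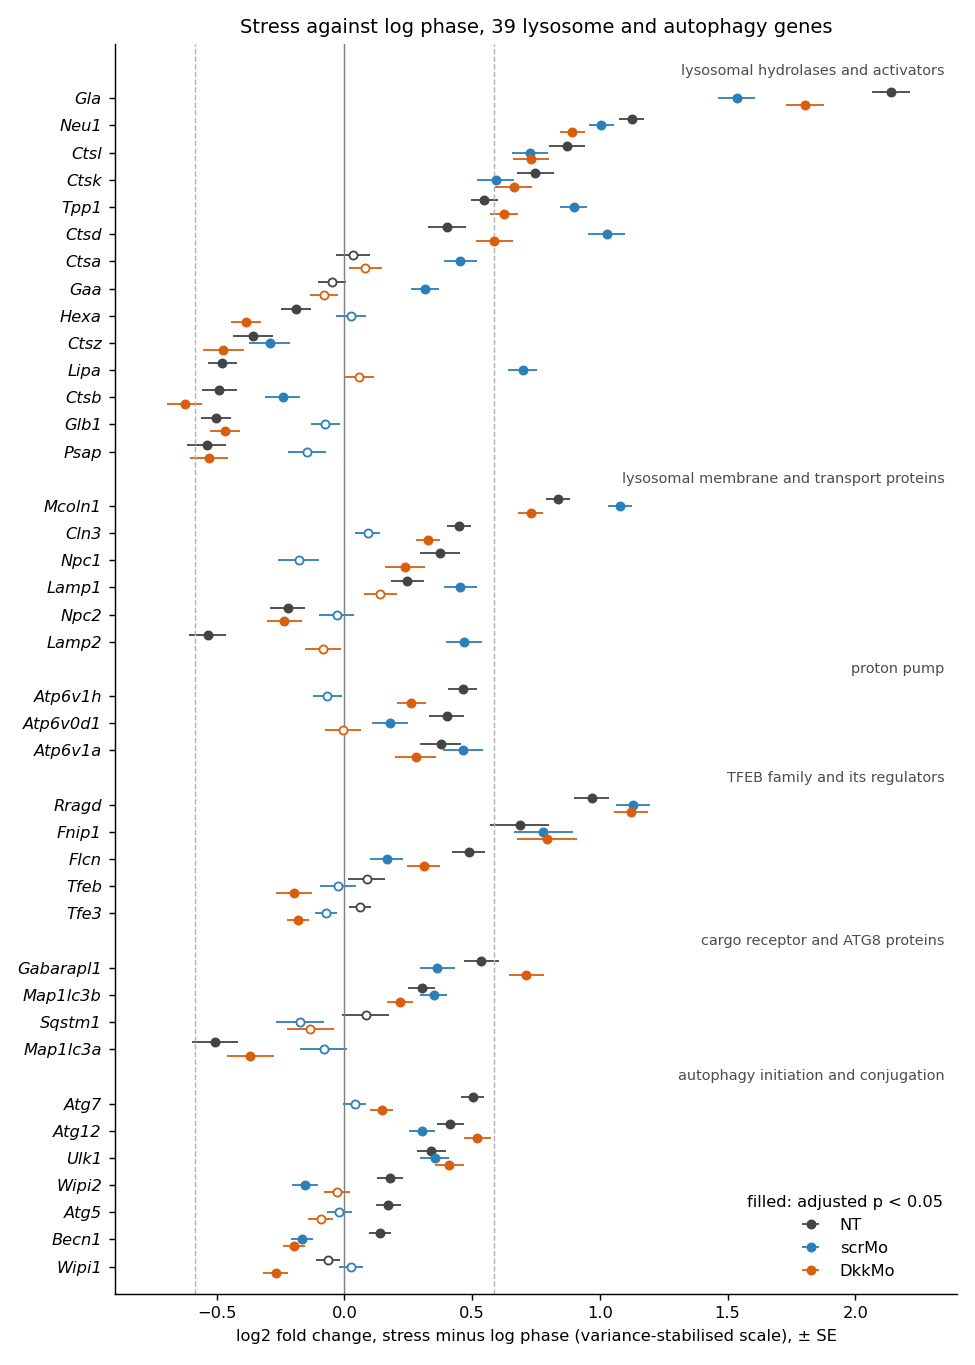
Log2 fold change (± SE, 3 against 3 libraries) between stressed and log-phase cultures for each member, grouped by role, with NT in grey, scrMo in blue and DkkMo in orange. Filled points had an adjusted p below 0.05, dashed lines mark 1.5-fold, and Gla lies furthest to the right, at 2.14 with NT.

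Among the 14 measured hydrolases and activators, 6 rose and 6 fell with NT, 9 rose and 2 fell with scrMo, and 6 rose and 5 fell with DkkMo. With NT 42.9% rose and 42.9% fell, against 31.5% and 34.1% of all genes. With scrMo 64.3% rose and 14.3% fell, against 28.0% and 30.8%. With DkkMo 42.9% rose and 35.7% fell, against 30.4% and 35.2%. Gla, which encodes alpha-galactosidase A and lies on chromosome X from 134588149 to 134601125 on the minus strand, rose most of all members in each state on the stabilised scale. In log phase its normalized counts were 1193, 1309 and 1283 with NT, 1569, 1683 and 1487 with scrMo and 1251, 1255 and 1331 with DkkMo. The stressed libraries held 6219, 6932 and 6382 with NT, 6006, 4726 and 4671 with scrMo and 4904, 5261 and 5280 with DkkMo. All stressed libraries lay above all log-phase libraries, and the log2 fold changes were 2.14 ± 0.07 (adjusted p = 2.45e-14) with NT, 1.54 ± 0.07 (adjusted p = 4.96e-12) with scrMo and 1.80 ± 0.07 (adjusted p = 3.41e-13) with DkkMo.

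Neu1, the lysosomal sialidase, lies on chromosome 17 from 34931253 to 34935953 on the plus strand. It stood at 1161, 1015 and 1056 with NT, 1367, 1248 and 1191 with scrMo and 1253, 1261 and 1261 with DkkMo in log phase. Stress brought it to 2596, 2668 and 2739 with NT, 2844, 2833 and 2781 with scrMo and 2601, 2490 and 2616 with DkkMo. The stressed libraries of each state lay above its log-phase libraries, with log2 fold changes of 1.13 ± 0.05, 1.01 ± 0.05 and 0.89 ± 0.05 (adjusted p = 4.39e-13, 6.66e-12 and 1.41e-11) for NT, scrMo and DkkMo.

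Ctsl, a cysteine protease and by read number one of the largest members, held 51378, 53197 and 58371 with NT, 45143, 49193 and 47792 with scrMo and 42318, 36560 and 40450 with DkkMo in log phase. It held 101907, 99808 and 96937 with NT, 82464, 75817 and 77445 with scrMo and 64036, 66933 and 67133 with DkkMo under stress. It rose by 0.87 ± 0.07, 0.73 ± 0.07 and 0.73 ± 0.07 on the log2 scale in the same order, with adjusted p-values of 2.16e-09, 5.62e-08 and 3.05e-08, and without overlap of the groups. Other annotated genes share 26.8% of its exon bases and 34.4% of those of Ctsd. Besides Gabarapl1 and Becn1, given below, the share was 17.4% for Ctsa, 17.3% for Sqstm1, 12.8% for Ctsb, 12.8% for Hexa and 9.31% for Lamp1. It was smaller for the other members. The strandedness of the libraries is not given in the sources used here, so reads of overlapping genes cannot be separated.

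Ctsd, the aspartic protease cathepsin D, had counts of 36062, 34767 and 35218 with NT, 31939, 26727 and 27085 with scrMo and 34982, 32082 and 29687 with DkkMo before stress. Its counts were 44333, 49232 and 46910 with NT, 58724, 57411 and 58839 with scrMo and 49582, 48413 and 47469 with DkkMo under it. The log2 fold change was 0.40 ± 0.07 with NT, 1.03 ± 0.07 with scrMo and 0.59 ± 0.07 with DkkMo (adjusted p = 7.56e-05, 8.74e-10 and 8.49e-07), and the value with NT was -0.076 under quantile normalization (adjusted p = 0.156).

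Tpp1, a tripeptidyl peptidase, had 7543, 8113 and 8319 with NT, 6166, 5774 and 6196 with scrMo and 7594, 8640 and 8060 with DkkMo in log phase. Stressed cultures had 11773, 11803 and 11847 with NT, 11977, 11585 and 10973 with scrMo and 12624, 12812 and 12428 with DkkMo. It rose in each state without overlap, by 0.55 ± 0.05, 0.90 ± 0.05 and 0.62 ± 0.05 on the log2 scale (adjusted p = 3.5e-08, 9.09e-11 and 6.59e-09), and its stressed values differed less between states than its log-phase values.

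Ctsk, the collagen-degrading protease best known from osteoclasts, was scarce. Its log-phase libraries had 26.6, 20.6 and 35.8 with NT, 38.7, 68.6 and 48.1 with scrMo and 13.3, 18.9 and 17.3 with DkkMo normalized counts. Its stressed libraries had 145, 134 and 146 with NT, 199, 152 and 124 with scrMo and 84.2, 97.0 and 111 with DkkMo. The group means under stress were 5.11, 3.06 and 5.90 times those in log phase for NT, scrMo and DkkMo, while the log2 fold changes on the stabilised scale, which compresses small counts, were 0.75 ± 0.07, 0.59 ± 0.07 and 0.66 ± 0.07 (adjusted p = 2.3e-08, 9.41e-07 and 1.37e-07). The 4 macrophage and osteoclast markers with a row had ranges over all libraries of 1.04 to 20.3 for Ptprc, 414 to 782 for Csf1r, 84.4 to 251 for Lyz2 and 108 to 309 for Cd14. Under stress 1 of them rose and 3 fell with NT, 1 rose and 1 fell with scrMo, and none rose and 1 fell with DkkMo. Csf1r went from 432, 432 and 472 to 690.0, 782 and 748 with NT, while Cd14 went from 263, 253 and 309 to 151, 145 and 129. Lyz2 went from 120, 120 and 138 to 92.6, 117 and 84.4 with NT, and Ptprc from 13.3, 17.1 and 16.0 to 6.99, 1.04 and 6.64. The part of such cells in the change of Ctsk was not tested.

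Ctsb, another cysteine protease, moved the other way. It had 32818, 34165 and 36849 with NT, 28761, 24046 and 25383 with scrMo and 30570, 30756 and 28137 with DkkMo in log phase. It had 24025, 25667 and 23956 with NT, 22593, 21776 and 21435 with scrMo and 20013, 19427 and 18284 with DkkMo under stress. The log2 fold change was -0.49 with NT, -0.24 with scrMo and -0.62 with DkkMo (adjusted p = 3.59e-06, 0.00516 and 1.66e-07), and each stressed group lay below its log-phase group.

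Psap was at 67334, 71902 and 72249 with NT, 59583, 50068 and 51104 with scrMo and 65774, 65692 and 58897 with DkkMo in log phase. It was at 47430, 50121 and 47607 with NT, 47304, 49058 and 48526 with scrMo and 46995, 42939 and 41701 with DkkMo under stress. It fell with NT and DkkMo, at -0.54 and -0.53 (adjusted p = 3e-06 and 4.13e-06), and with scrMo the log2 fold change was -0.14 (adjusted p = 0.103). The stressed values of NT and scrMo overlapped, whereas in log phase all scrMo libraries lay below all NT libraries.

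Lipa, the acid lipase that cleaves cholesteryl esters, was at 1948, 1876 and 1894 with NT, 1358, 1346 and 1449 with scrMo and 1701, 2026 and 1810 with DkkMo in log phase. Stressed cultures were at 1287, 1294 and 1293 with NT, 2223, 2510 and 2518 with scrMo and 1942, 2022 and 1826 with DkkMo. It fell with NT, at -0.48 ± 0.06 on the log2 scale (adjusted p = 4.86e-07), and rose with scrMo, by 0.70 ± 0.06 (adjusted p = 6.13e-09). With DkkMo the groups overlapped, at 0.06 ± 0.06 on the log2 scale (adjusted p = 0.388).

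Ctsz, a carboxypeptidase, had 9468, 9499 and 9568 with NT, 10485, 8412 and 8448 with scrMo and 10510, 9655 and 8821 with DkkMo in log phase. Its stressed libraries had 6906, 7968 and 7243 with NT, 7526, 7060 and 7466 with scrMo and 7427, 6655 and 6520 with DkkMo. The log2 fold changes were -0.36, -0.29 and -0.47 (adjusted p = 0.000579, 0.00377 and 3.27e-05). The beta-galactosidase gene Glb1 fell, at -0.50 on the log2 scale with NT and -0.47 with DkkMo (adjusted p = 2.65e-07 and 7.62e-07) and was at -0.08 with scrMo (adjusted p = 0.277). Of the remaining hydrolases, Ctsa and Gaa were called with scrMo alone, with rises of 0.45 and 0.32, and Hexa fell with NT and DkkMo, at -0.19 and -0.39 on the log2 scale. Without the first log-phase NT library the adjusted p of Hexa with NT was 0.0512, and with libraries centred on their medians it was 0.648.

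**Figure D3:**
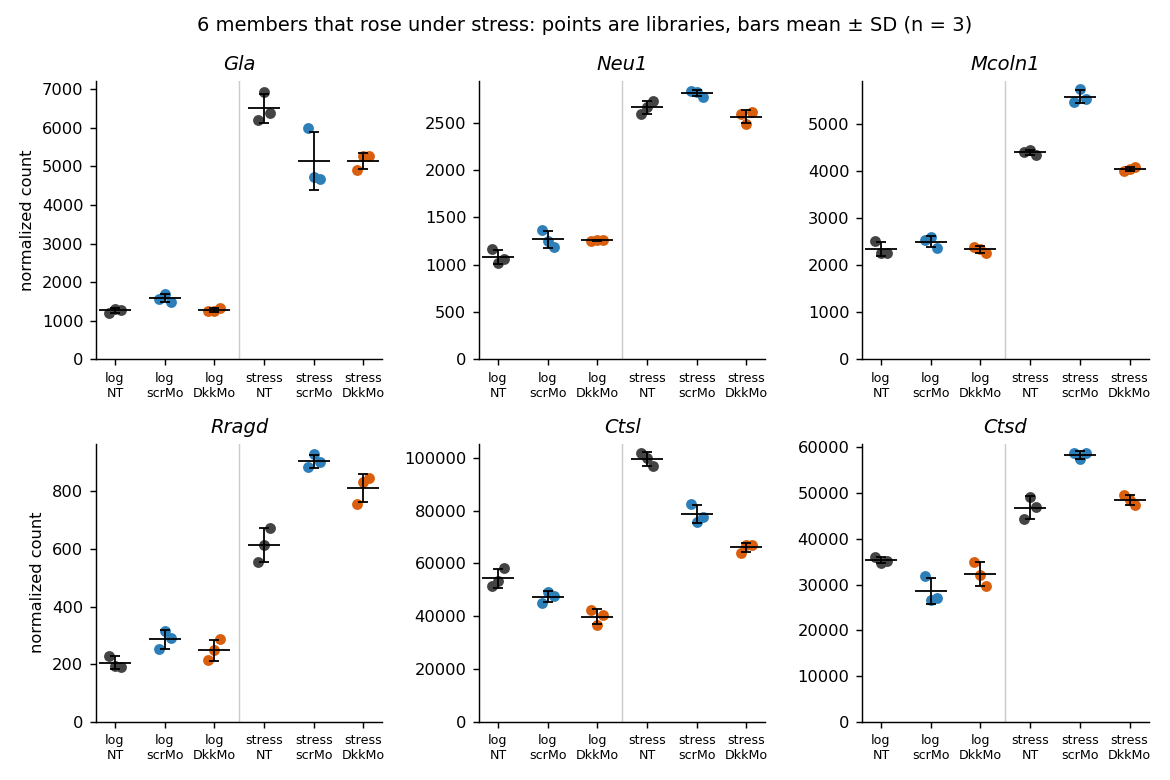
Normalized counts of Gla, Neu1, Mcoln1, Rragd, Ctsl and Ctsd in each library (points, linear axes from 0) with the mean ± SD of 3 libraries, for log phase on the left and stress on the right of each panel. In each panel the stressed groups lie above the log-phase groups of the same morpholino state, and Gla reaches 6932 in a stressed NT library.

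Of the 6 lysosomal membrane and transport proteins, 4 rose and 2 fell with NT, 3 rose and none fell with scrMo, and 3 rose and 1 fell with DkkMo. All genes rose and fell at 31.5% and 34.1% with NT, 28.0% and 30.8% with scrMo, and 30.4% and 35.2% with DkkMo. Mcoln1, the calcium channel mucolipin of the lysosomal membrane, lies on chromosome 8 from 3500457 to 3515232 on the plus strand. Log-phase libraries had 2516, 2244 and 2256 with NT, 2521, 2589 and 2361 with scrMo and 2391, 2346 and 2247 with DkkMo. Stressed libraries had 4398, 4446 and 4334 with NT, 5468, 5731 and 5520 with scrMo and 3992, 4048 and 4082 with DkkMo. It rose by 0.84 ± 0.05, 1.08 ± 0.05 and 0.73 ± 0.05 on the log2 scale (adjusted p = 1.47e-11, 2.08e-12 and 1.35e-10), and the stressed scrMo libraries were the highest.

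Lamp2, a glycoprotein that coats the inner face of the lysosomal membrane, stood at 12873, 12674 and 12885 with NT, 8293, 9197 and 9905 with scrMo and 10606, 13585 and 12286 with DkkMo in log phase. It stood at 8947, 8651 and 8649 with NT, 12470, 12908 and 12784 with scrMo and 11307, 11787 and 11123 with DkkMo under stress. It fell with NT, at -0.54 ± 0.07 on the log2 scale (adjusted p = 1.9e-06), and rose with scrMo, by 0.47 ± 0.07 (adjusted p = 1.47e-05), so that the stressed NT libraries were the lowest under stress and the scrMo libraries the lowest in log phase. With DkkMo its change was -0.08 ± 0.07 (adjusted p = 0.315).

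Its relative Lamp1 had 25642, 27208 and 28013 with NT, 20788, 18397 and 19153 with scrMo and 25522, 26780 and 23897 with DkkMo in log phase. Under stress it had 31170, 33483 and 31376 with NT, 28463, 26256 and 25527 with scrMo and 28845, 28334 and 26826 with DkkMo. It rose by 0.25 ± 0.06 on the log2 scale with NT and 0.45 ± 0.06 with scrMo (adjusted p = 0.00257 and 7.16e-06), and with DkkMo it was at 0.14 ± 0.06 (adjusted p = 0.0655). Under quantile normalization the value with NT was -0.096 (adjusted p = 0.176).

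Npc1, which carries cholesterol out of the lysosome, had 5515, 4157 and 4403 with NT, 4905, 5555 and 5830 with scrMo and 3868, 4110 and 4496 with DkkMo in log phase. Stressed cultures had 6151, 5961 and 6258 with NT, 4705, 4861 and 4682 with scrMo and 4880, 5132 and 4818 with DkkMo. It rose by 0.37 on the log2 scale with NT and 0.24 with DkkMo (adjusted p = 0.000396 and 0.014), and was at -0.18 with scrMo (adjusted p = 0.0609). The call with DkkMo was lost without the first log-phase or the second stressed DkkMo library, at adjusted p-values of 0.063 and 0.0544. Its partner Npc2 fell with NT and DkkMo, at -0.22 and -0.24 on the log2 scale, and both calls were lost when the libraries were centred on their medians (adjusted p = 0.403 and 0.346).

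Cln3, a lysosomal membrane protein lost in a childhood storage disease, was at 957, 921 and 959.7 with NT, 1001, 1144 and 1019 with scrMo and 763, 825 and 822 with DkkMo in log phase. It was at 1356, 1435 and 1372 with NT, 1166, 1154 and 1098 with scrMo and 1096, 1072 and 1049 with DkkMo under stress. It rose by 0.45 on the log2 scale with NT and 0.33 with DkkMo (adjusted p = 1.04e-07 and 7.22e-06), and the scrMo groups overlapped.

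All 3 proton pump subunits rose with NT, 2 with scrMo and 2 with DkkMo, against 31.5%, 28.0% and 30.4% of all genes. Atp6v1h, which regulates the catalytic sector, held 2712, 2518 and 2514 with NT, 2845, 2862 and 2917 with scrMo and 2607, 2544 and 2932 with DkkMo in log phase. It held 3591, 3829 and 3574 with NT, 2966, 2593 and 2643 with scrMo and 3236, 3418 and 3195 with DkkMo under stress. It rose by 0.46 on the log2 scale with NT and 0.26 with DkkMo (adjusted p = 6.58e-07 and 0.000476), and the scrMo groups overlapped, at -0.07. Atp6v1a, the catalytic subunit, rose in all 3 states, by 0.38, 0.46 and 0.28 on the log2 scale. Atp6v0d1 rose by 0.40 on the log2 scale with NT (adjusted p = 4.64e-05) and was at -0.01 with DkkMo, and its call with scrMo, a rise of 0.18, was lost without the second or the third log-phase scrMo library or any 1 stressed scrMo library (adjusted p = 0.0543 to 0.167).

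Of the 5 genes of the TFEB family and its regulators, Rragd, Fnip1 and Flcn rose in each state, and Tfeb and Tfe3 were called with DkkMo alone, both lower. Among all genes 16.6% rose in each state, and 35.2% fell with DkkMo. Rragd, a Rag GTPase, lies on chromosome 4 from 32983037 to 33022180 on the plus strand. It was scarce in log phase, at 230.0, 195 and 191 with NT, 252, 316 and 291 with scrMo and 213, 248 and 286 with DkkMo. It was at 555, 614 and 672 with NT, 883, 928 and 902 with scrMo and 756, 834 and 845 with DkkMo under stress. The group means under stress were 2.99, 3.16 and 3.26 times those in log phase for NT, scrMo and DkkMo, and the log2 fold changes were 0.97 ± 0.07, 1.13 ± 0.07 and 1.12 ± 0.07 (adjusted p = 2.49e-10, 7.69e-11 and 4.16e-11).

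Fnip1, the folliculin-interacting protein, was at 3806, 3304 and 3374 with NT, 2963, 3774 and 4261 with scrMo and 2977, 3853 and 4654 with DkkMo in log phase. Its stressed libraries were at 5944, 5576 and 5844 with NT, 6634, 6414 and 6246 with scrMo and 6395, 7153 and 6701 with DkkMo. The log-phase scrMo and DkkMo libraries spread widely, and the groups still did not overlap, with log2 fold changes of 0.69 ± 0.12, 0.78 ± 0.12 and 0.79 ± 0.12 (adjusted p = 3.63e-05, 1.24e-05 and 7.04e-06).

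Flcn, folliculin itself, had 4193, 3261 and 3469 with NT, 3682, 3323 and 3591 with scrMo and 3236, 3354 and 3483 with DkkMo in log phase. It had 5225, 5115 and 5230 with NT, 4127, 3924 and 3929 with scrMo and 4300, 4194 and 4201 with DkkMo under stress. It rose by 0.49, 0.17 and 0.31 on the log2 scale (adjusted p = 1.88e-06, 0.0346 and 0.000324). The call with scrMo was lost without the second log-phase scrMo library (adjusted p = 0.142) or any 1 stressed scrMo library (adjusted p = 0.0547 to 0.111).

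Tfeb had few reads, with 231, 256 and 271 with NT, 271, 212 and 241 with scrMo and 284, 306 and 231 with DkkMo in log phase. It had 249, 290.3 and 305 with NT, 201, 248 and 249.8 with scrMo and 215, 187 and 233 with DkkMo under stress. The groups overlapped in every state, and the log2 fold changes were 0.09 ± 0.07, -0.03 ± 0.07 and -0.20 ± 0.07 (adjusted p = 0.297, 0.777 and 0.0202). The call with DkkMo, a fall, was lost without the first or second log-phase or the second stressed DkkMo library (adjusted p = 0.0567, 0.0993 and 0.1).

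Tfe3 was at 3295, 3114 and 3156 with NT, 3013, 2949 and 2876 with scrMo and 3007, 2875 and 2732 with DkkMo in log phase. It was at 3313, 3401 and 3301 with NT, 2714, 2814 and 2839 with scrMo and 2509, 2464 and 2509 with DkkMo under stress. It fell with DkkMo, at -0.18 on the log2 scale (adjusted p = 0.000997), a call that was lost when libraries were centred on their medians (adjusted p = 0.704), and was at 0.06 with NT and -0.07 with scrMo (adjusted p = 0.22 and 0.162).

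Of the 4 cargo receptor and ATG8 genes, 2 rose and 1 fell with NT and with DkkMo, and 2 rose with scrMo. All genes rose and fell at 31.5% and 34.1% with NT, 30.4% and 35.2% with DkkMo, and 28.0% and 30.8% with scrMo. Gabarapl1 had 5273, 4739 and 4631 with NT, 6564, 5990 and 5586 with scrMo and 5518, 4916 and 4981 with DkkMo in log phase. Stressed libraries had 6716, 7865 and 7051 with NT, 8281, 7596 and 7691 with scrMo and 8427, 8743 and 8594 with DkkMo. It rose by 0.54 ± 0.07, 0.36 ± 0.07 and 0.71 ± 0.07 on the log2 scale without overlap (adjusted p = 1.12e-06, 0.000148 and 2.73e-08). Other genes share 28.3% of its exon bases.

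Map1lc3b, which encodes the ATG8 protein most used to follow autophagosomes, had 6125, 6173 and 6232 with NT, 6388, 6211 and 5764 with scrMo and 6244, 5773 and 5373 with DkkMo in log phase. Under stress the counts were 7641, 7874 and 7533 with NT, 7997, 7786 and 7827 with scrMo and 6723, 6699 and 6911 with DkkMo. It rose by 0.30, 0.35 and 0.22 on the log2 scale (adjusted p = 4.01e-05, 1.1e-05 and 0.00108). Map1lc3a instead had 1462, 1496 and 1490 with NT, 1413, 1035 and 968 with scrMo and 1680, 1435 and 1255 with DkkMo in log phase. Its stressed libraries held 886, 1056 and 961 with NT, 1058, 1040 and 1051 with scrMo and 1061, 1038 and 1085 with DkkMo. It fell, at -0.51 ± 0.09 on the log2 scale with NT and -0.37 ± 0.09 with DkkMo (adjusted p = 7.35e-05 and 0.0016), while with scrMo the groups overlapped, at -0.08 ± 0.09.

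Sqstm1, the cargo receptor that is itself degraded by autophagy, had 76031, 64996 and 61216 with NT, 101002, 95711 and 90103 with scrMo and 86212, 65153 and 74096 with DkkMo in log phase. Under stress it had 68738, 72645 and 72062 with NT, 80628, 86825 and 86464 with scrMo and 68692, 66916 and 68595 with DkkMo. Its log2 fold changes were 0.08 ± 0.09, -0.17 ± 0.09 and -0.13 ± 0.09, and none was called (adjusted p = 0.449, 0.117 and 0.22). Its log-phase libraries were more spread than the stressed ones.

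Of the 7 genes of autophagy initiation and conjugation, 6 rose and none fell with NT, 2 rose and 2 fell with scrMo, and 3 rose and 2 fell with DkkMo. With NT 85.7% thus rose, against 31.5% of all genes, of which 34.1% fell. With scrMo 28.6% rose and 28.6% fell, near the 28.0% and 30.8% of all genes. With DkkMo 42.9% rose and 28.6% fell, against 30.4% and 35.2%. Ulk1, the initiating kinase, had 1387, 1552 and 1557 with NT, 1647, 1801 and 1668 with scrMo and 1473, 1720 and 1570 with DkkMo in log phase. It had 2000, 1874 and 2027 with NT, 2195, 2381 and 2188 with scrMo and 2177, 2160 and 2255 with DkkMo under stress. It rose by 0.34, 0.35 and 0.41 on the log2 scale without overlap (adjusted p = 2.94e-05, 2.72e-05 and 3.19e-06).

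Atg7, the activating enzyme of both conjugation systems, was at 1299, 1193 and 1276 with NT, 1366, 1275 and 1252 with scrMo and 1410, 1409 and 1381 with DkkMo in log phase. Stressed libraries were at 1864, 1935 and 1876 with NT, 1299, 1358 and 1370 with scrMo and 1603, 1511 and 1622 with DkkMo. It rose by 0.50 ± 0.04 on the log2 scale with NT and 0.15 ± 0.04 with DkkMo (adjusted p = 8.75e-09 and 0.00794), and was at 0.04 ± 0.04 with scrMo. Atg12, a ubiquitin-like protein, rose in all states, by 0.42, 0.30 and 0.52 on the log2 scale, and Atg5, its conjugation partner, with NT alone, by 0.17.

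Becn1, of the lipid kinase complex, had 3856, 3817 and 3797 with NT, 3858, 3796 and 3928 with scrMo and 4216, 3907 and 3977 with DkkMo in log phase. Its stressed libraries had 4153, 4310 and 4263 with NT, 3526, 3369 and 3346 with scrMo and 3389, 3477 and 3583 with DkkMo. It rose with NT, by 0.14 on the log2 scale (adjusted p = 0.00694), and fell with scrMo and DkkMo, at -0.16 and -0.20 (adjusted p = 0.00251 and 0.000451). The rise was lost under quantile normalization (adjusted p = 0.603) and the falls when libraries were centred on their medians (adjusted p = 0.06 and 0.525), and other genes share 43.9% of its exon bases.

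Wipi1, a phosphoinositide-binding protein of the growing membrane, had 3353, 3433 and 3237 with NT, 3566, 3584 and 3642 with scrMo and 3496, 3662 and 3568 with DkkMo in log phase. It had 3225, 3100 and 3226 with NT, 3375, 3887 and 3755 with scrMo and 2868, 2904 and 2981 with DkkMo under stress. It fell with DkkMo, at -0.27 on the log2 scale (adjusted p = 6.13e-05), and was at -0.06 with NT and 0.03 with scrMo. Its relative Wipi2 rose by 0.18 on the log2 scale with NT and fell, at -0.15 with scrMo. The rise was lost under quantile normalization (adjusted p = 0.425), and the falls of Wipi2 with scrMo and of Wipi1 with DkkMo were lost when libraries were centred on their medians (adjusted p = 0.171 and 0.0515). The fall of Wipi2 was also lost without the second or the third stressed scrMo library (adjusted p = 0.055 and 0.0542).

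Members whose promoter window held TCACGTGA were set beside the other members with a window. With NT, 6 of the 7 holders rose and none fell, with a median log2 fold change of 0.40, and of the 26 others 14 rose and 7 fell, with a median of 0.18. With scrMo, 6 of the holders rose, with a median of 0.46, and 14 of the others rose and 2 fell, with a median of 0.24. With DkkMo, 5 of the holders rose, with a median of 0.33, and 11 of the others rose and 8 fell, with a median of 0.01. All genes tested rose and fell at 31.5% and 34.1% with NT, 28.0% and 30.8% with scrMo, and 30.4% and 35.2% with DkkMo. The difference between these sets was not tested, and tested genes with the motif outside the set were not read. Among the holders, the calls of Ctsd with NT and of Atp6v0d1 with scrMo were lost in alternatives given above.

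The rest of the pathway was read from lists of 134 other measured genes. With NT, 61 of them rose and 44 fell, or 45.5% and 32.8%, with a median log2 fold change of 0.08. With scrMo 57 rose and 31 fell, or 42.5% and 23.1%. With DkkMo 43 rose and 50 fell, or 32.1% and 37.3%, near the shares of all genes. Of all genes, 31.5% rose and 34.1% fell with NT, 28.0% and 30.8% with scrMo, and 30.4% and 35.2% with DkkMo. Among 14 other proton pump subunits, 11 rose and 2 fell with NT, 8 rose and 1 fell with scrMo, and 7 rose and 3 fell with DkkMo. Atp6v0b and Atp6v1c1 rose most with NT, by 1.36 and 1.15 on the log2 scale, followed by Atp6v1b2, by 1.09.

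Of 30 other lysosomal hydrolases, 6 rose and 18 fell with NT, or 20% and 60%, against 31.5% and 34.1% of all genes. With scrMo 9 rose and 11 fell, or 30.0% and 36.7%, near the 28.0% and 30.8% of all genes. With DkkMo 3 rose and 20 fell, or 10.0% and 66.7%, against 30.4% and 35.2%. The largest falls with NT were those of Arsb, Naglu and Sgsh, enzymes of glycosaminoglycan breakdown, at -1.85, -1.58 and -1.29 on the log2 scale. With scrMo they were those of Ctsw, Naglu and Plbd2, at -0.88, -0.84 and -0.65 on the log2 scale, and with DkkMo those of Naglu, Arsb and Plbd2, at -1.73, -1.34 and -1.25. Of 23 other membrane, transport and sorting genes, 13 rose and 6 fell with NT, 13 and 4 with scrMo, and 10 and 7 with DkkMo. These shares were 56.5% and 26.1%, 56.5% and 17.4%, and 43.5% and 30.4%. Hgsnat, Cd68 and Ctns rose most with NT, by 1.44, 1.37 and 0.62 on the log2 scale, and Scarb2 fell, at -0.82.

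Of 26 other genes of the TFEB family and amino acid sensing, 9 rose and 14 fell with NT, 8 and 7 with scrMo, and 6 and 9 with DkkMo. These were 34.6% and 53.8% with NT, against 31.5% and 34.1% of all genes. With scrMo they were 30.8% and 26.9%, near the 28.0% and 30.8% of all genes. With DkkMo they were 23.1% and 34.6%, against 30.4% and 35.2%. Tfec, a relative of Tfeb, rose by 0.81, 1.39 and 0.85 on the log2 scale, and Rragc, whose product pairs with a second Rag GTPase, by 0.83 with NT and 0.71 with DkkMo. Nprl3, part of a complex that restrains mTORC1, fell, at -1.10 on the log2 scale with NT and -0.85 with DkkMo. Of 41 other autophagy genes, 22 rose and 4 fell with NT, 19 and 8 with scrMo, and 17 and 11 with DkkMo. These shares were 53.7% and 9.76%, 46.3% and 19.5%, and 41.5% and 26.8%. Atg14, a partner of Beclin, rose by 1.43, 1.10 and 1.63 on the log2 scale in the 3 states. Atg9b and Tecpr1 rose by 1.69 and 1.33 on the log2 scale with NT, Atg13 and Plekhm1 by 0.75 and 0.82 with scrMo, and Bnip3, a mitophagy receptor, fell, at -1.04 with DkkMo.

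The control morpholino was compared with no morpholino. These groups differ in the delivery of a morpholino and in its sequence, whose parts in a change cannot be told apart. In log phase, 9 members rose and 14 fell with scrMo, 59.0% called against 26.4% of all genes tested, of which 11.8% rose and 14.6% fell. On the stabilised scale none exceeded 1.5-fold, against 2.45% of all genes, 0.592% higher and 1.85% lower, while 1 did without the first log-phase NT library. In normalized counts the mean of Ctsk, which was called, was 1.87 times that with NT, and this call was lost without the first or second NT or the second scrMo library (adjusted p = 0.0652, 0.126 and 0.147). Of the 14 hydrolases, 10 fell and 3 rose, and of the 6 membrane proteins 3 fell and none rose. Lamp2 fell most, at -0.48 ± 0.07 on the log2 scale (adjusted p = 6.34e-05), followed by Lamp1, at -0.47 ± 0.06 (adjusted p = 3.23e-05), and Gaa, the glycogen-degrading acid glucosidase, at -0.44 ± 0.05 (adjusted p = 8.36e-06). Gaa had 16415, 16197 and 16680 with NT, 13024, 11751 and 11340 with scrMo and 14646, 14185 and 13734 with DkkMo normalized counts in log phase and 15634, 16074 and 15967 with NT, 14393, 15543 and 15197 with scrMo and 13579, 12903 and 13782 with DkkMo under stress. Lipa, Psap, Ctsb and Tpp1 also fell, at -0.40, -0.40, -0.41 and -0.39 on the log2 scale. Sqstm1 rose by 0.51 ± 0.09 on the log2 scale (adjusted p = 0.000505), Gabarapl1 by 0.29 ± 0.07 (adjusted p = 0.00359) and Gla by 0.27 ± 0.07 (adjusted p = 0.0101). The leading rises and falls were taken from calls whose libraries did not overlap between scrMo and NT. Without the second log-phase scrMo library the adjusted p of Gla was 0.0511. With libraries centred on their medians, 16 members rose and 11 fell, and with only the 2 groups in the model 14 members were called, 5 of them rising.

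Under stress, scrMo raised 9 members and lowered 11 against NT, 51.3% called against 46.8% of all genes, of which 22.1% rose and 24.7% fell. Over 1.5-fold were 4.43% of all genes, 1.90% higher and 2.54% lower. Lipa was the 1 member past that size, with a log2 fold change of 0.78 ± 0.06 (adjusted p = 5.19e-09). Lamp2 rose by 0.53 ± 0.07 on the log2 scale (adjusted p = 8.47e-06) and Rragd by 0.42 ± 0.07 (adjusted p = 5.21e-05). Atg7 fell most, at -0.42 ± 0.04 on the log2 scale (adjusted p = 5.01e-07), followed by Atp6v1h, at -0.39 ± 0.06 (adjusted p = 1.87e-05), and Flcn, at -0.36 ± 0.06 (adjusted p = 0.000184). These genes were taken from calls without overlap between the groups, so the absence of overlap is no further result. Under quantile normalization 19 rose and 7 fell, so the balance of directions rests on the scaling.

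The effect of scrMo differed between the culture conditions for 21 members, 53.8%, against 46.0% of all genes, 22.8% in the positive and 23.2% in the negative direction. It was more positive under stress for 12, 9 of them hydrolases, and more negative for 9. Over 1.5-fold, against 10.9% of all genes, 5.55% positive and 5.37% negative, the log2 differences were those of Lipa, 1.18 ± 0.08 (adjusted p = 2.26e-09), Lamp2, 1.00 ± 0.10 (adjusted p = 2.92e-07), Ctsd, 0.62 ± 0.10 (adjusted p = 7.43e-05), and Gla, -0.61 ± 0.10 (adjusted p = 0.000112). In Gla the sign was opposite to that of the other 3, and without the second log-phase scrMo library 2 members exceeded 1.5-fold. With libraries centred on their medians, 9 of 24 such differences were positive, and under quantile normalization 16 of 22.

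DkkMo was compared with scrMo, the control for delivery. In log phase, 10 members rose and 8 fell, 46.2% called against 23.5% of all genes, of which 14.3% rose and 9.20% fell. On the stabilised scale none exceeded 1.5-fold, against 1.97%, 1.66% higher and 0.308% lower, whereas in normalized counts the mean of Ctsk with scrMo was 3.14 times that with DkkMo. The rises were led by Tpp1, by 0.40 ± 0.05 on the log2 scale (adjusted p = 3.48e-05), Lamp2, by 0.40 ± 0.07 (adjusted p = 0.000459), and Lamp1, by 0.38 ± 0.06 (adjusted p = 0.000301). Lipa and Glb1 rose by 0.35 and 0.34 on the log2 scale. Npc1 fell, at -0.36 ± 0.08 on the log2 scale (adjusted p = 0.00256), Ctsk at -0.36 ± 0.07 (adjusted p = 0.00119) and Sqstm1 at -0.35 ± 0.09 (adjusted p = 0.00947). These 6 leading genes were taken from calls without overlap between DkkMo and scrMo libraries, so the absence of overlap is no further result. Without the second log-phase DkkMo library, or without the second log-phase scrMo library, 11 members were called, and in the first case the adjusted p of Sqstm1 was 0.0673. Without the first log-phase scrMo library 19 members were called, and without the first log-phase DkkMo library 16. With only the 2 groups in the model 7 were called, and with libraries centred on their medians 7 rose and 12 fell. This comparison and that of scrMo with NT share the scrMo libraries. In log phase 59.0% of members were called for scrMo against NT and 12.8% for DkkMo against NT. Tpp1, Lamp2 and Lamp1 fell with scrMo against NT and were not called for DkkMo against NT. The part of the block of Dkk-1 in these differences was not tested.

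Against NT in log phase, DkkMo raised 1 member and lowered 4, 12.8% called against 9.81% of all genes, of which 5.36% rose and 4.46% fell. None exceeded 1.5-fold, against 0.827%, 0.513% higher and 0.314% lower. Ctsl fell, at -0.45 ± 0.07 on the log2 scale (adjusted p = 0.000406), the largest difference, with no overlap between libraries. Gaa fell, at -0.21 on the log2 scale, Cln3 at -0.18 and Tfe3 at -0.14, and Neu1 rose by 0.18 (adjusted p = 0.019, 0.0194, 0.0477 and 0.0218). Only Ctsl was called without the third log-phase NT library or with only the 2 groups in the model. Without the second log-phase NT library 3 members were called, and without the third log-phase DkkMo library 2.

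Under stress, DkkMo lowered 12 members and raised 2 against scrMo, 35.9% called against 20.9% of all genes. Those that fell made up 30.8%, against 10.9% of all genes, and 7 of the 12 were hydrolases. Those that rose made up 5.13%, against 9.97%. On the stabilised scale none exceeded 1.5-fold, against 1.00%, 0.513% higher and 0.489% lower, whereas in normalized counts the mean of Ctsk with scrMo was 1.63 times that with DkkMo. Mcoln1 fell, at -0.44 ± 0.05 on the log2 scale (adjusted p = 3.01e-06), Sqstm1 at -0.31 ± 0.09 (adjusted p = 0.022) and Wipi1 at -0.30 ± 0.05 (adjusted p = 0.000149). Atp6v1h and Atg7 rose, by 0.24 ± 0.06 and 0.20 ± 0.04 on the log2 scale (adjusted p = 0.00461 and 0.00378). The call of Sqstm1 was lost without any 1 stressed DkkMo library or without the second or the third scrMo library (adjusted p = 0.0517 to 0.0795). Without the third stressed DkkMo library 9 members were called, with only the 2 groups in the model 23 were, and with libraries centred on their medians 3 rose and 9 fell.

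Against NT under stress, DkkMo lowered 18 members and raised 4, 56.4% called against 41.7% of all genes. Those that fell made up 46.2%, against 22.7% of all genes, and those that rose 10.3%, against 19.0%. Ctsl fell, at -0.59 ± 0.07 on the log2 scale (adjusted p = 3.42e-06) and was the 1 member over 1.5-fold, against 2.66% of all genes, 1.12% higher and 1.54% lower, a size it did not reach without the first stressed NT or the first stressed DkkMo library. Tfe3 fell, at -0.38 ± 0.04 on the log2 scale (adjusted p = 1.61e-06) and Ctsb at -0.35 ± 0.07 (adjusted p = 0.00052). Tfeb also fell, at -0.22 on the log2 scale (adjusted p = 0.0171), a call lost without the second or the third stressed NT library or the second DkkMo library (adjusted p = 0.0564, 0.0759 and 0.0879). Of the autophagy initiation and conjugation genes, 4 of 7 fell and none rose. The rises were those of Lipa, by 0.49 ± 0.06 on the log2 scale (adjusted p = 2.42e-06), Lamp2, by 0.37 ± 0.07 (adjusted p = 0.000403), Rragd, by 0.30 ± 0.07 (adjusted p = 0.00159), and Gabarapl1, by 0.25 ± 0.07 (adjusted p = 0.00737). Under quantile normalization 11 rose and 8 fell, and 10 of the falls were lost, among them that of Ctsb (adjusted p = 0.123).

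**Figure D4:**
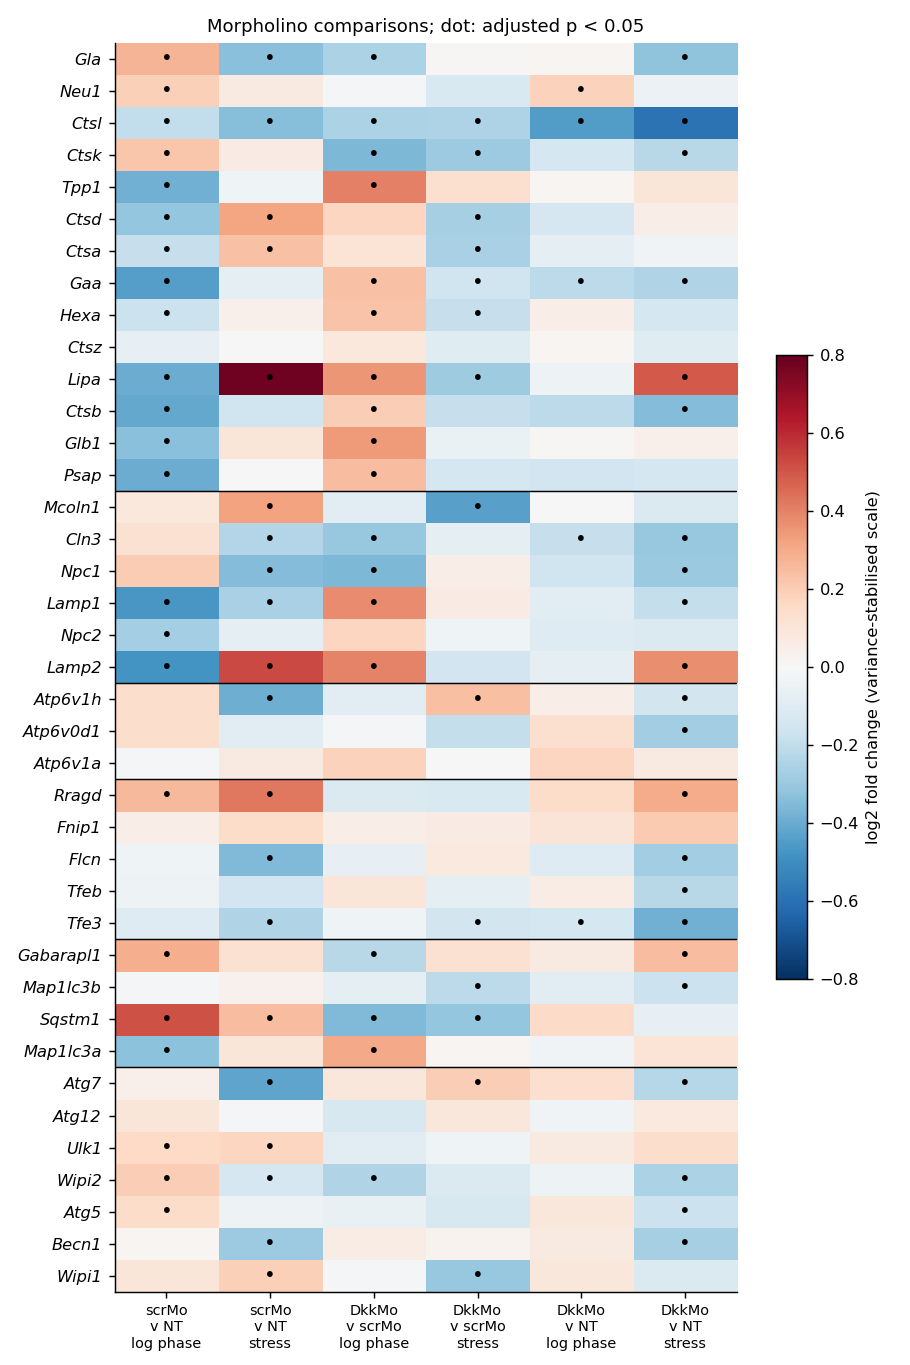
Log2 fold changes of 39 members (rows, ordered by role) in 6 comparisons of morpholino states (columns), with red for higher and blue for lower in the first-named state and dots where the adjusted p was below 0.05. The deepest red is Lipa with scrMo against NT under stress, at 0.78, and the deepest blue is Ctsl with DkkMo against NT under stress, at -0.59.

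Ctsl was lower with DkkMo than with either control in both culture conditions. Against scrMo its log2 fold change was -0.25 ± 0.07 in log phase and -0.25 ± 0.07 under stress (adjusted p = 0.014 and 0.0164), and the libraries did not overlap. Against NT neither call was lost without any 1 library. Against scrMo in log phase the call was lost without the second DkkMo or the second scrMo library (adjusted p = 0.0813 and 0.0615), and under stress it was lost without the first DkkMo or the first scrMo library (adjusted p = 0.0651 and 0.0705). Both were lost under quantile normalization (adjusted p = 0.152 and 0.333), and the log-phase call with only the 2 groups in the model (adjusted p = 0.19). Ctsl was also lower with scrMo than with NT, at -0.19 and -0.34 on the log2 scale (adjusted p = 0.0485 and 0.000635), and in log phase that call was lost without the second or the third NT library or any 1 scrMo library (adjusted p = 0.0534 to 0.226).

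**Figure D5:**
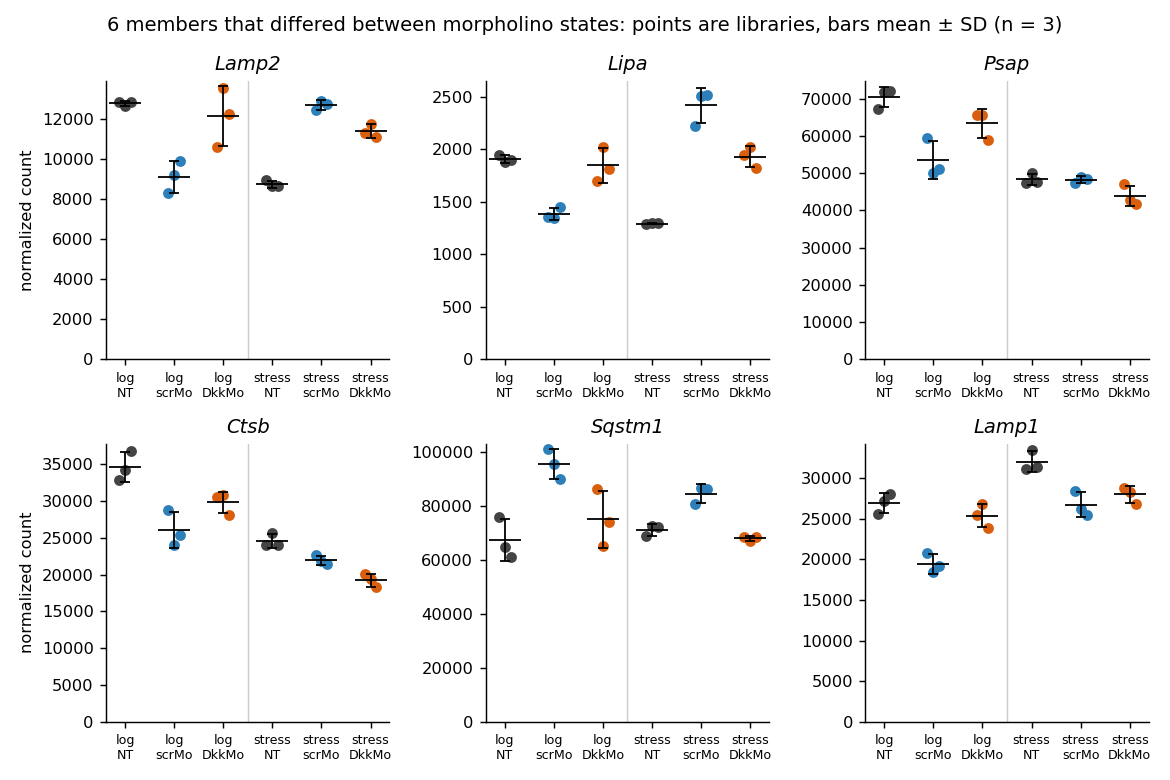
Normalized counts of Lamp2, Lipa, Psap, Ctsb, Sqstm1 and Lamp1 in each library (points, linear axes from 0) with the mean ± SD of 3 libraries. Lamp2 and Lipa are lowest with scrMo in log phase and lowest with NT under stress.

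The effect of DkkMo against scrMo differed between the conditions for 18 members, 46.2%, against 22.2% of all genes, 8.93% in the positive and 13.2% in the negative direction, and it was more negative under stress for 13. All 9 hydrolases among them were more negative. Past 1.5-fold were 3.70% of all genes, 0.869% positive and 2.83% negative. Lipa differed most, and alone by over 1.5-fold, at -0.64 ± 0.08 on the log2 scale (adjusted p = 2.34e-05), followed by Lamp2, at -0.55 ± 0.10, and Ctsd, at -0.44 ± 0.10, while Npc1 differed most in the other direction, by 0.42 ± 0.11 (adjusted p = 0.000715, 0.0047 and 0.0123). Without the second log-phase DkkMo library no member exceeded 1.5-fold, and without the first log-phase DkkMo or the third log-phase scrMo library 2 did. With libraries centred on their medians 8 of 19 differences were positive, and none exceeded 1.5-fold. With NT as the control, 12 members differed, 30.8%, against 29.1% of all genes, 12.3% positive and 16.8% negative, with 10 more negative under stress. None exceeded 1.5-fold, against 3.92%, 1.53% positive and 2.38% negative, while 1 did without the second log-phase DkkMo library, and under quantile normalization 8 of 12 differences were positive. The largest were those of Lipa, 0.54 ± 0.08, and Lamp2, 0.45 ± 0.10, in the positive direction, and Atp6v0d1, -0.41 ± 0.10, in the negative one (adjusted p = 0.000112, 0.00267 and 0.00476).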

How the data were processed

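RNA-seq libraries of 18 cultures in 6 groups of 3 were used, and the tumour libraries of the series were not used here. Per the study's methods and the submitters' processing notes, the authors aligned reads to GRCm38 with HISAT2 2.1.0, counted them per gene with SAMtools 1.9 and featureCounts (Subread 2.0.0), and deposited log2 values from the variance-stabilising transformation of DESeq2. Strandedness, the treatment of multiple alignments and the gene filter are not given in the sources used here. The transformation was reversed to normalized counts and reads, and at least 99.9% of values in each library lay within 0.1 of a whole read. These came to between 25.9 and 44.8 M reads per library, and such counts limit precision for scarce genes.

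Groups were taken from the labels. limma 3.58.1 in R 4.3.3 (lmFit and eBayes with a trend) fitted the deposited values of all 18 libraries together, with 9 comparisons of 2 groups and 3 interactions, with Benjamini-Hochberg adjustment over 16562 genes. Of 16576 rows, 14 were set aside because values within a group spanned more than 6 log2 units. The filter, at least 3 libraries above the lowest value, removed 0 rows. The procedure was tested on simulated data in which each gene had the same spread in both conditions. Replicates here lay further apart in log phase, so that test does not show that the p-values hold in these libraries. Alternatives were other filters, only the groups compared, no trend, median centring, quantile normalization, log2 of the normalized count plus 1, voom on the recovered reads, a replicate block and leaving out each library. No column of the table went unused.

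The members and lists were chosen with earlier results of these data known. Values in every library are given for 16 measured members whatever their change and for the 3 largest rises and falls of each comparison among calls without overlap. Genes outside the set come from fixed lists, with up to 3 of the largest changes over 1.5-fold in each direction. A gene of these lists is not reported here.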

Additional observations from a re-analysis of the deposited data

Results flagged for a closer look

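The effect of a morpholino had opposite directions in the 2 culture conditions for 9 results, each called in both conditions and in the test of the difference, which was an interaction term in limma. The share of all genes that meet this rule was not computed, so the number 9 tells nothing particular about the members. The interaction alone was called for 46.0% of all genes for scrMo against NT and 22.2% for DkkMo against scrMo. Differences below are the effect under stress minus the effect in log phase on the log2 scale.

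For scrMo against NT, Lipa differed by 1.18 ± 0.08 (adjusted p = 2.26e-09), from -0.40 in log phase to 0.78 under stress. Lamp2 differed by 1.00 ± 0.10 (adjusted p = 2.92e-07), from -0.48 to 0.53. Ctsd differed by 0.62 ± 0.10 (adjusted p = 7.43e-05), from -0.31 to 0.32, and Ctsa by 0.42 ± 0.09 (adjusted p = 0.00108), from -0.19 to 0.23. In these 4 genes scrMo cultures were lower than NT in log phase and higher under stress. Gla went the other way, with a difference of -0.61 ± 0.10 (adjusted p = 0.000112), from 0.27 to -0.33. So did Wipi2, with -0.33 ± 0.07 (adjusted p = 0.000998), from 0.20 to -0.14. The log-phase call of Gla was lost without the second log-phase scrMo library. Under quantile normalization the change of Wipi2 under stress turned its sign.

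For DkkMo against scrMo, Lipa differed by -0.64 ± 0.08 (adjusted p = 2.34e-05), from 0.35 in log phase to -0.29 under stress. Hexa differed by -0.41 ± 0.08 (adjusted p = 0.00168), from 0.23 to -0.18, and Gaa by -0.40 ± 0.08 (adjusted p = 0.00121), from 0.23 to -0.16. The call of Gaa under stress was lost with a replicate block (adjusted p = 0.0715), with median centring (adjusted p = 0.1) and without any 1 library except the first scrMo library (adjusted p = 0.0603 to 0.167). That of Hexa under stress was lost with median centring (adjusted p = 0.0739) and without the second or the third DkkMo or scrMo library (adjusted p = 0.103 to 0.119). Both sets of differences share the scrMo libraries.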

How the results depend on the processing

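Of the called values of members over all comparisons, most kept their direction and call, and the cause of the exceptions was not tested. A model of just the groups compared has fewer samples and takes the spread from those libraries alone. In log phase it called 7 members for DkkMo against scrMo, where the main model called 18. For scrMo against NT it called 14 in place of 23, and for DkkMo against NT 1 in place of 5. Under stress the numbers grew, to 23 from 14, 24 from 20 and 29 from 22 in the same order. Replicates lay further apart in log phase, and the main model shares 1 spread over both conditions. Median centring gave 13 members over 1.5-fold for stress with NT and 0 for the interaction of DkkMo against scrMo. Quantile normalization gave 8 members called for DkkMo against NT in log phase, and over 1.5-fold 2 for scrMo against NT in log phase, 3 under stress, 1 and 0 for DkkMo against NT in log phase and under stress, 7 for the interaction of scrMo against NT and 3 for that of DkkMo against NT. It turned the signs of Ctsd (-0.076) and Lamp1 (-0.096) for stress with NT, Wipi2 (0.016) for scrMo against NT under stress and Lamp1 (0.0044) for DkkMo against NT under stress. With log2 of the normalized count plus 1, and with voom, 1 member exceeded 1.5-fold in each of 4 comparisons, namely DkkMo against scrMo in log phase and under stress, scrMo against NT in log phase and the interaction of DkkMo against NT, and in the first 3 of them it was Ctsk. Leaving out 1 library gave 11 to 19 members called for DkkMo against scrMo in log phase, 9 to 14 under stress and 1 to 5 for DkkMo against NT in log phase. The members over 1.5-fold then numbered 0 to 1 for scrMo against NT in log phase, 0 to 1 for DkkMo against NT under stress, and for the interactions 0 to 2 (DkkMo against scrMo), 2 to 5 (scrMo against NT) and 0 to 1 (DkkMo against NT). Replicate numbers in the titles were not taken as pairs, since the correlation of deviations was not above 0.1 in every same-numbered pair. For DkkMo against scrMo in log phase it was 0.62, -0.05 and 0.57, against -0.68 to 0.30 between different numbers. A replicate block gave 17 members called there, 14 under stress, 21 for scrMo against NT in log phase, 4 for DkkMo against NT in log phase, 25 and 30 for stress with scrMo and DkkMo, and 17 for the interaction of DkkMo against scrMo. No paired analysis was possible with stressed NT libraries because their titles repeat a number. Depth limits Ctsk, Tfeb and Rragd, the members with the fewest reads.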
